A study of Mus musculus with 6 samples.

Results

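Cytosolic ribosomal proteins are the proteins that, with ribosomal RNA, build the ribosome of the cytoplasm. Their genes were taken from a whole-genome array by symbol: every gene probe whose name was Rpl, Rps or Rplp followed by a number and an optional letter, without the Rps6k kinases. This gave 79 of the 27962 gene names on the array, with 132 probes; 40 of the genes had a single probe and 39 had several. The probe brightest on average over the 6 arrays stood for each gene, and 78 of the 79 entered the test over 21518 genes. For 23 of these the array lists the probe under several RefSeq accessions. A further 71 probes, described as ribosomal proteins under 67 other names, were not included, and signal from near-identical copies of a gene cannot be told apart by its probe.

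The ribosome has a large subunit, which joins amino acids, and a small subunit, which reads the messenger RNA. The acidic P proteins form a flexible stalk on the large subunit that recruits translation factors. Messenger RNAs of ribosomal proteins are among the most abundant in growing lymphoid cells, and many begin with a run of pyrimidines, the terminal oligopyrimidine or TOP motif, through which growth signalling sets how well they are translated.

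The samples were S49 cells, a mouse T lymphoma line grown in suspension. Neo was the parental line and MR 4-25 a line that the labels call mannitol recovered, mannitol being a sugar alcohol that raises the osmolarity of culture medium. Both were grown in RPMI-1640 with heat-inactivated serum, without treatment, and each gave 3 RNA samples, hybridised to 1 Cy3-labelled Agilent array each. Whether the 3 samples were separate cultures, and whether MR 4-25 was a single clone, is not given in the sources used here, so p-values measure only the spread between these samples. Arrays 1 and 2 of each line shared a slide, and array 3 of each line lay on a second slide. All 8 T lymphocyte markers examined were well above background on all 6 arrays, as were 2 of 4 B lymphocyte, 4 of 5 myeloid, 2 of 3 erythroid and 3 of 3 fibroblast markers.

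Levels are log2 values of the processed signal over the array's own 75th percentile, so that 0 is the level of that percentile, and differences are MR 4-25 minus Neo. The 75th percentile was 988, 844 and 917 intensity units on Neo 1 to 3, and 872, 912 and 521 on MR 4-25 1 to 3. The share of probes well above background was 61.3% on MR 4-25 3 and 69.9% to 76.2% on the others. Between 75.2% and 78.7% of the 141 spots for these genes were read from the low-gain scan, which is scaled up for bright spots, and 0 were saturated.

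No gene of the family passed the test between the lines. Of the 78 genes, 77 were well above background on all 6 arrays and 77 of the probes, which the rule had picked for brightness, gave signals in the brightest 25% of all genes; signals of different probes do not rank the messages. Limma, with Benjamini-Hochberg adjustment over all 21518 genes and a threshold of 0.05, called 0 of 78 higher and 0 lower in MR 4-25, where it called 1.2% of all genes (0.665% higher and 0.539% lower); the lowest adjusted p among the 78 was 0.33. At an unadjusted limma p under 0.05 there were 3 genes, Rpl13a and Rps3a higher and Rpl31 lower, against 13.2% of all genes. In bulk samples, fewer cells with a message and less of it per cell cannot be told apart. All 23 alternative settings also called 0, and the lowest adjusted p of a ribosomal protein gene in any of them was 0.058, with array quality weights.

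The intervals say how large a difference these arrays could have missed. The 95% interval lay within a 2-fold change in either direction for 68 of the 78 genes, and the median standard error was 0.20. The 10 intervals that reached past 2-fold included those of Rpl3l and Rpl21, the widest. The 3 arrays of one line lay wholly above those of the other for 6 genes with MR 4-25 higher, where 11.2% of all genes did so, and for 3 genes with MR 4-25 lower, where 13.2% did so. The first were Rpl13a, Rps3a, Rps27, Rps6, Rplp0 and Rpl17, the last of these named after its values were seen, and the second were Rpl7l1, Rpl27a and Rpl31.

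**Figure D1:**
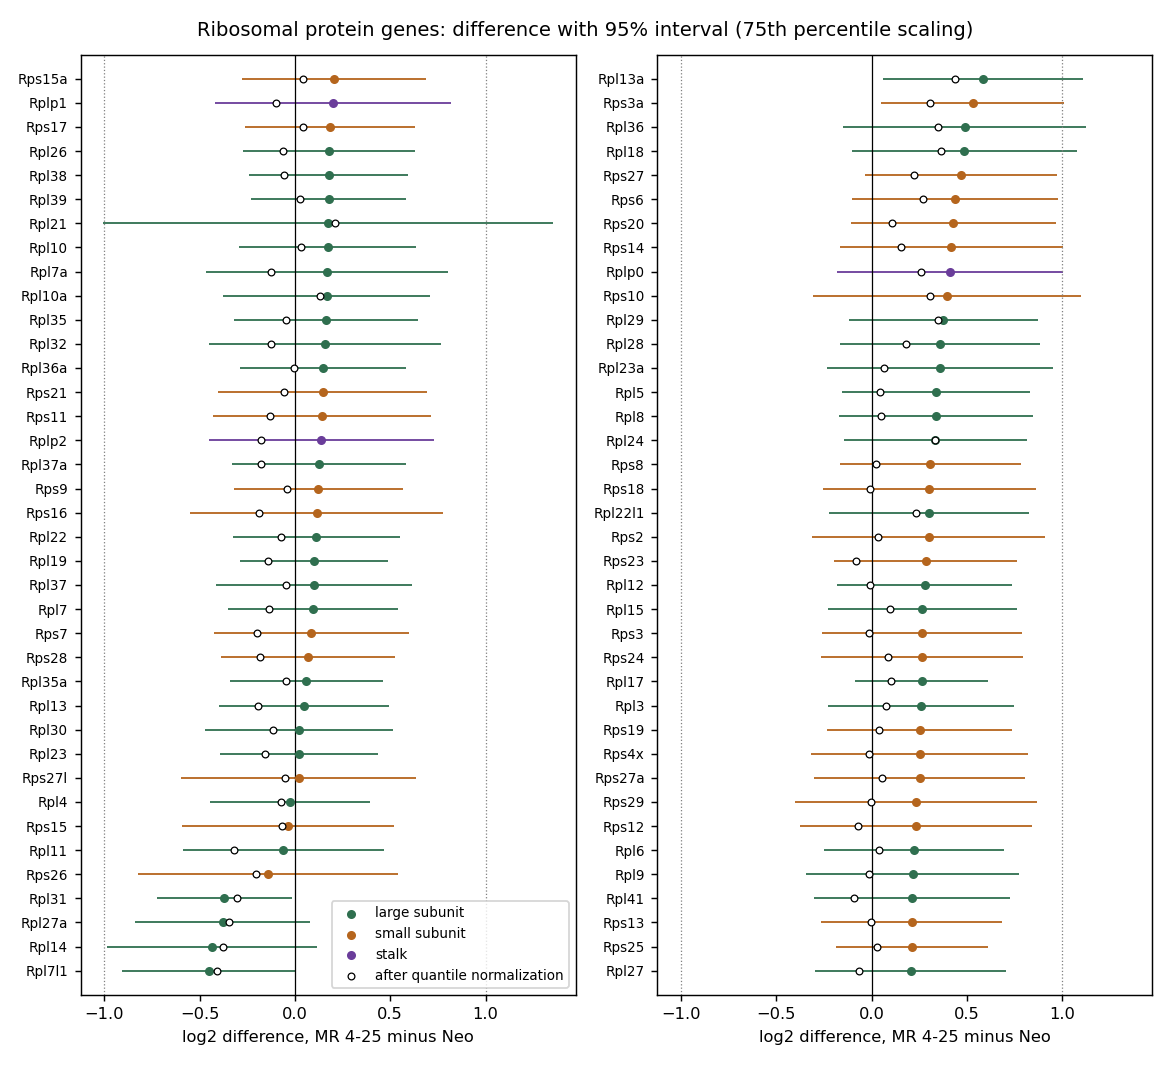
Difference between the lines (horizontal axis, log2, MR 4-25 minus Neo) for 76 ribosomal protein genes, ordered by size from lower left to upper right, with 95% intervals from limma and the subunit in colour. Open points give the same difference after quantile normalization, and dotted lines mark a 2-fold change. Rpl3l, whose interval runs from -2.68 to 3.51, and 1 further gene are left out. Nearly all intervals cross 0, and the open points lie to the left of most filled ones.

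Although no single gene passed, most of the family had a positive difference, and its size depended on the scaling. With 75th percentile scaling the median difference was 0.21, with 70 genes higher and 8 lower in MR 4-25, against 0.01 over all genes and 0.01 over the brightest 5% of genes without the family. After quantile normalization the median was -0.01, with 35 genes higher and 43 lower. After normexp background correction it was 0.01, while the median of all genes stood at 0.34.

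The family also varied together from array to array within a line. Its median level was 7.73, 8.06 and 7.63 on Neo 1 to 3 and 7.96, 7.95 and 8.13 on MR 4-25 1 to 3. Neo 2 thus lay as high as the MR 4-25 arrays, and the 2 lines overlapped. The highest of a gene's 6 values fell on MR 4-25 3 for 45 genes and on Neo 2 for 14, and the lowest on Neo 3 for 48 and on Neo 1 for 20. The median unscaled signal of the family was 209654, 226096 and 181617 units in Neo and 217118, 225641 and 146413 in MR 4-25. On MR 4-25 3 it was thus the lowest of the 6 before scaling and the highest after division by the lowest 75th percentile; the part of that percentile in the result was not tested.

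The slides gave differences of unlike size. On slide 1 the median difference was 0.07, and on slide 2, which holds 1 array of each line, it was 0.54. Over all genes it was -0.02 and 0.09, and over the brightest 5% without the family -0.05 and 0.13. Of the 78 genes, 71 had the larger difference on slide 2. The share of all genes that did so is not given here. Without MR 4-25 3 the family's median difference was 0.12, with 62 of its genes higher and 16 lower. Grouped by symbol alone, the 45 large subunit genes had a median difference of 0.18, the 30 small subunit genes 0.24 and the 3 stalk genes 0.20.

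**Figure D2:**
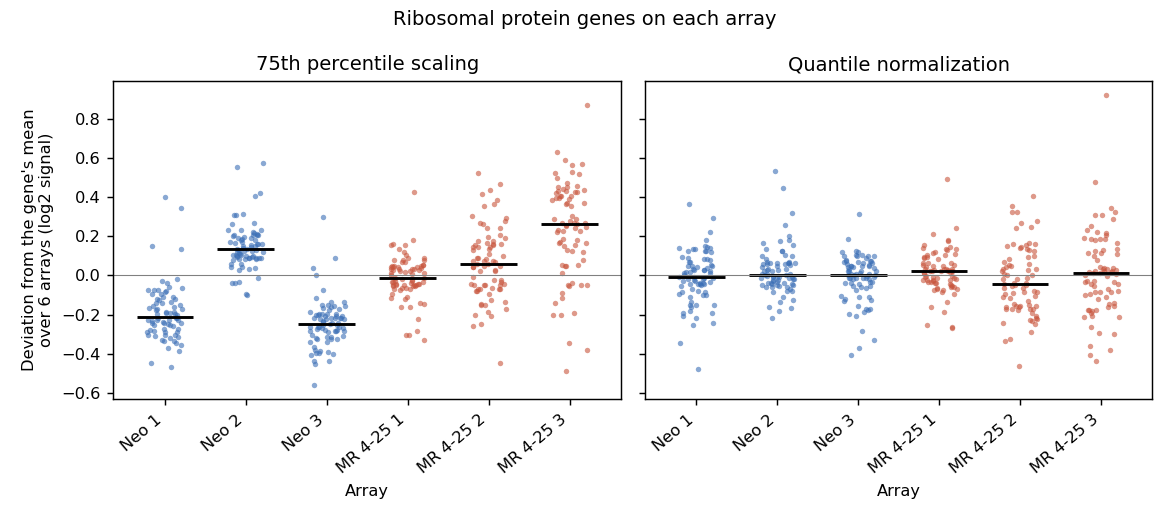
Deviation of each ribosomal protein gene from its own mean over the 6 arrays (vertical axis, log2 signal) on each array (horizontal axis), for 77 genes without Rpl3l. Black bars are medians; the left panel has 75th percentile scaling and the right panel quantile normalization. On the left, Neo 1 and Neo 3 lie below 0 and MR 4-25 3 lies highest, with a median of 0.26 over all 78 genes. On the right all 6 medians lie close to 0.

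The genes of the family varied less relative to each other than relative to the 75th percentile. After each array was scaled to the family's own median, an alternative added after the data were seen, the median SD of a gene among replicates went from 0.22 to 0.065 in Neo and from 0.18 to 0.15 in MR 4-25, while for all genes it went from 0.23 to 0.31 and from 0.42 to 0.45. Subtracting the family's own median takes out what its genes share on an array, so a smaller SD for the family is partly built in. On the family's own scale the MR 4-25 arrays spread more than the Neo arrays, and on the main scale they spread less. Neither difference was tested. On this scale limma again called 0 of 78, where it called 0.553% of all genes. The arrays of the lines did not overlap for 8 genes with MR 4-25 higher and 10 with MR 4-25 lower, where 4.9% and 17.3% of all genes did so; dividing by the family's median moves the median of all genes to -0.20.

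Among large subunit genes, Rpl13a had the largest positive difference. Rpl13a encodes a core protein of the subunit that can also leave it and restrain translation of inflammatory messages, and its RNA is often used as a reference for normalization. Its level was 6.82, 7.27 and 6.89 on Neo 1 to 3 and 7.39, 7.80 and 7.54 on MR 4-25 1 to 3. Every MR 4-25 array was above every Neo array, though MR 4-25 1 exceeded Neo 2 by little. The difference was 0.58 ± 0.21 (SE, 3 arrays a line), a 1.5-fold higher signal, with a 95% interval of 0.06 to 1.11 and a limma adjusted p of 0.33. It was 0.44 after quantile normalization and stayed positive in all 23 alternatives, from 0.28 to 0.76.

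Rpl36 and Rpl18, both structural proteins of the large subunit, had differences of 0.49 ± 0.25 and 0.49 ± 0.23 (SE), with limma adjusted p of 0.51 and 0.48, and their lines overlapped. Rpl18 was 6.64, 7.14 and 6.42 in Neo and 7.13, 7.16 and 7.36 in MR 4-25, so that only Neo 2 reached the MR 4-25 range.

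Among the brightest probes of each gene, the largest negative differences were in 4 genes with large subunit (Rpl) names, whose probes were dim for the family. Rpl7l1, Rpl14, Rpl31 and Rpl27a had Neo means of 2.67, 3.03, 3.05 and 4.46. Together with Rpl21, at 1.86, these were the only genes whose brightest probe had a Neo mean between 0 and 5 on this scale, and 72 genes had a mean above 5. The plot of difference against brightness shows the 4 dimmer than most of the family and below 0 under both scalings. After quantile normalization their differences were not apart from the rest, as Rpl11 at -0.32 lay below Rpl31 at -0.30.

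Rpl7l1 encodes a paralog of Rpl7, the latter a core large subunit protein. Its level was 2.85, 2.68 and 2.48 in Neo and 2.14, 2.42 and 2.10 in MR 4-25. All MR 4-25 arrays were below all Neo arrays. The difference was -0.45 ± 0.18 (SE), a 1.37-fold higher signal in Neo, with a limma adjusted p of 0.38. A second probe for the gene had a difference of -0.28 ± 0.15 (SE). Rpl7 itself had a difference of 0.09, with an interval of -0.35 to 0.54.

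Rpl31 encodes a protein near the exit of the tunnel through which the new chain leaves. Its level was 3.00, 2.99 and 3.16 in Neo and 2.72, 2.66 and 2.66 in MR 4-25. The lines were apart by more than the spread within either. The difference was -0.37 ± 0.14 (SE), with an interval of -0.72 to -0.02 and a limma adjusted p of 0.35, and a second, dimmer probe had a difference of -0.54 ± 0.25 (SE).

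Rpl27a and Rpl14 are structural proteins of the large subunit. Rpl27a was 4.42, 4.69 and 4.27 in Neo and 3.94, 4.23 and 4.08 in MR 4-25, which gave -0.38 ± 0.18 (SE) and a limma adjusted p of 0.48. Its lines did not overlap, but its second probe had a difference in the other direction, 0.18 ± 0.46 (SE). Rpl14 was 3.16, 3.02 and 2.90 in Neo and 2.51, 2.96 and 2.32 in MR 4-25, so that MR 4-25 2 lay among the Neo arrays, and the difference was -0.43 ± 0.22 (SE). In all 23 alternatives these 4 genes kept a negative difference; none passed the test in any.

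The other genes with large subunit names and negative differences were near 0. Rpl11, which with Rpl5 binds the 5S ribosomal RNA and can hold back Mdm2, the brake on p53, had a difference of -0.06 with an interval of -0.59 to 0.47. Rpl5 stood at 0.34 (-0.16 to 0.83) and Rpl23, another protein that binds Mdm2, at 0.02 (-0.40 to 0.43). Rpl4, which lines the exit tunnel, was at -0.02 (-0.44 to 0.40). Of these, Rpl5 alone kept its sign in all 23 alternatives. Rpl3, which lies close to the catalytic centre, was at 0.26 and Rpl10, which is among the last proteins to join the subunit, at 0.17. Rpl32, also used as a reference gene, was at 0.16, Rpl39 at 0.18 and Rpl41, the smallest ribosomal protein, at 0.21. All of these intervals included 0.

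**Figure D3:**
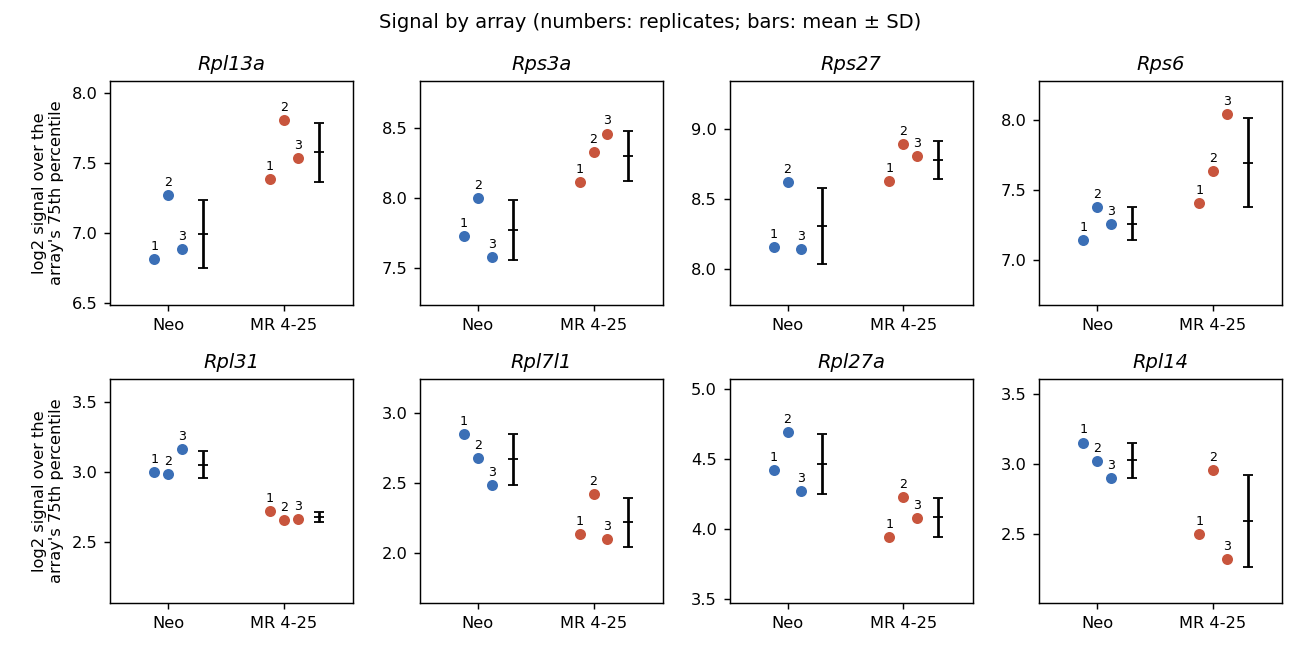
Log2 signal over the array's 75th percentile (vertical axis) on each array of Neo (blue) and MR 4-25 (red), with replicate numbers at the points and bars for the mean ± SD of 3 arrays. Each panel is centred on its own mean and spans the same height. The top row holds 4 genes with positive differences and the bottom row 4 with negative ones; Rpl14 alone overlaps between the lines.

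Among small subunit genes, Rps3a led. Rps3a, now called Rps3a1, encodes a protein of the small subunit's platform. Its level was 7.73, 8.0 and 7.58 in Neo and 8.11, 8.32 and 8.46 in MR 4-25. All MR 4-25 arrays were above all Neo arrays, the closest pair being MR 4-25 1 and Neo 2. The difference was 0.53 ± 0.19 (SE), a 1.44-fold higher signal, with an interval of 0.05 to 1.01 and a limma adjusted p of 0.33. A second probe had 0.22 ± 0.19 (SE).

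Rps27, a zinc finger protein of the small subunit, was 8.16, 8.62 and 8.15 in Neo and 8.63, 8.90 and 8.81 in MR 4-25, a difference of 0.47 ± 0.20 (SE) with a limma adjusted p of 0.41. Its lines touched, with Neo 2 almost at MR 4-25 1. Rps6, the substrate of S6 kinase, was 7.14, 7.38 and 7.26 in Neo and 7.41, 7.64 and 8.05 in MR 4-25, a difference of 0.44 ± 0.21 (SE). MR 4-25 3 was the highest of these. Rps20, on the head of the subunit, had 0.43 ± 0.21 (SE) with overlapping lines, and turned to -0.18 when all its probes were averaged.

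The small subunit genes mutated in Diamond-Blackfan anaemia had differences of both signs. Rps19 had a difference of 0.25 (-0.23 to 0.74), Rps10 0.39 (-0.31 to 1.10) and Rps26 -0.14 (-0.82 to 0.54). Rps15, the only other small subunit gene with a negative difference, was at -0.03. Rps27a, which is made as a fusion with ubiquitin, was at 0.25, as was Rps4x, whose gene lies on the X chromosome, and Rps18, a reference gene, at 0.30.

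None of the 3 stalk genes passed the test. Rplp0, the base of the stalk and a common reference gene, was 6.84, 7.00 and 6.82 in Neo and 7.00, 7.17 and 7.72 in MR 4-25. The lowest MR 4-25 value barely exceeded the highest Neo value, and the difference of 0.41 ± 0.23 (SE) was 0.17 on slide 1 and 0.90 on slide 2. The array's annotation places this probe on chromosome 8, whereas RefSeq has the gene on chromosome 5. Rplp1 and Rplp2, the acidic proteins that pair on that base, had differences of 0.20 (-0.42 to 0.82) and 0.14 (-0.45 to 0.73), and both turned negative after quantile normalization, to -0.10 and -0.18.

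Of the 4 genes named as like another member, only Rpl7l1 had lines that did not overlap. Rpl22l1 and Rpl22, a pair in which Rpl22 is known to repress its paralog, had differences of 0.30 (-0.22 to 0.82) and 0.11 (-0.32 to 0.55). Rps27l, a p53 target gene, was at 0.02 (-0.60 to 0.63). Rpl3l, known from heart and skeletal muscle, was the only gene of the family not above background throughout: it was well above on Neo 3, MR 4-25 2 and MR 4-25 3, with levels of -5.88, -6.35 and -3.24 in Neo and -6.14, -5.35 and -2.74 in MR 4-25. Its highest value in each line was that on slide 2.

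**Figure D4:**
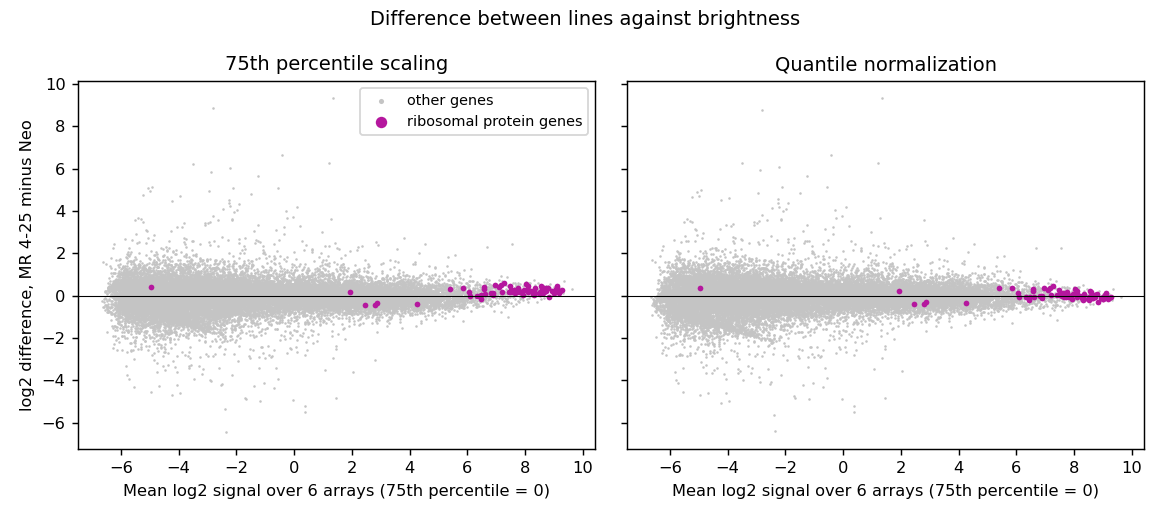
Difference between the lines (vertical axis, log2, MR 4-25 minus Neo) against mean log2 signal over 6 arrays (horizontal axis, 0 at the 75th percentile) for 21518 genes in grey and the 78 ribosomal protein genes in purple. With 75th percentile scaling (left) the bright family lies mostly above 0, and with quantile normalization (right) around 0. The 4 genes between 2 and 5 on the horizontal axis with negative differences, Rpl7l1, Rpl14, Rpl31 and Rpl27a, lie below 0 in both panels.

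The further probes for these genes mostly shared the sign of the brightest one where they were bright, but mostly not where they were dim. There were 51 of them, for 38 genes, with a median difference of 0.09, and 15 had the sign opposite to the gene's brightest probe. Of the 37 with a mean above the array's 75th percentile, 29 were higher in MR 4-25 and 6 had the opposite sign. Of the 14 below it, 5 were higher and 9 lower, and 9 had the opposite sign. Over all 30965 probes tested one by one, limma called 1.3%, and of the 129 for this family it called 0; the lowest adjusted p was 0.15.

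For 5 small and large subunit genes a second probe was lower in MR 4-25 at an unadjusted limma p under 0.05 while the brightest probe had a positive difference. Of the further probes with a mean above the 75th percentile, 1 of 37 was lower at that p, where 11.6% of all such probes were, and of those below it 4 of 14, where 6.6% were. These genes were chosen after their values were seen, so their values are a description. The probe pairs lie between 968 and 9975 bases apart in build mm7 and share the gene's name on the array; their place relative to exons was not examined, as no annotation of that build was used, and a position longer than 60 bases is as the array lists it. The first 30 of the 60 bases of each deposited probe follow, in lower case throughout, the brighter probe first, to show which sequences were read.
Rps15a bright, chr7:114037415-114037718, minus strand: gtcatcgttcggttcttaaccgtgatgatg
Rps15a dim, chr7:114027381-114027440, minus strand: gtgagtcagcagaaagtatagatagcaaag
Rps12 bright, chr10:23538288-23538347, minus strand: atggcaaagaatctcaggccaaggatgtca
Rps12 dim, chr10:23539315-23539374, minus strand: tctactgtttgaggtaaagtcaggtgattt
Rps20 bright, chr4:3761639-3761698, minus strand: atcagtattgagccaggagttgaggttgaa
Rps20 dim, chr4:3758777-3758836, minus strand: tgcaatgactacattgaatgtcccttagtt
Rps24 bright, chr14:22159843-22161168, plus strand: aacacagactggcaagacatggcctttatg
Rps24 dim, chr14:22164510-22164569, plus strand: gtcaagagcctgaactgagttgatcaagtc
Rpl37 bright, chr15:4942235-4942294, plus strand: ctaccaccttcagaagtcgacttgtggcaa
Rpl37 dim, chr15:4943809-4943868, plus strand: ctaccatgcctacagtgtcttaagacgctt

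The dim Rps15a probe was -3.51, -3.46 and -3.10 in Neo and -4.56, -4.08 and -4.93 in MR 4-25, a difference of -1.17 ± 0.27 (SE), while the bright one had 0.20 ± 0.19. The dim Rps12 probe was 0.59, 0.51 and 0.93 in Neo and -0.38, 0.03 and -0.87 in MR 4-25, a difference of -1.08 ± 0.28 (SE), while the bright one had 0.23 ± 0.24. The dim probes of Rps15a and Rpl37 were well above background on 5 of the 6 arrays, and the other dim probes on all 6. Rps20 had -0.78 ± 0.21 (SE) on the dim probe and 0.43 ± 0.21 on the bright one. Rps24 had -0.53 ± 0.19 (SE) and 0.26 ± 0.21, and another Rps24 probe had 0.13 ± 0.26. Rpl37 had -1.10 ± 0.41 (SE) and 0.10 ± 0.20. Limma's adjusted p over all probes was 0.15 for Rps15a, 0.19 for Rps12, 0.19 for Rps20, 0.31 for Rps24 and 0.32 for Rpl37, so none passed.

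**Figure D5:**
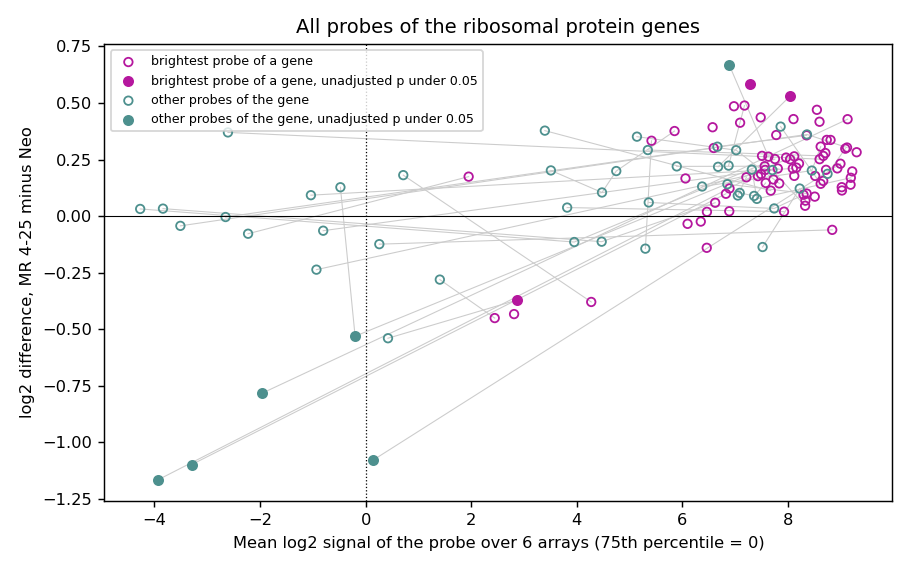
Difference between the lines (vertical axis, log2, MR 4-25 minus Neo) against the probe's mean log2 signal over 6 arrays (horizontal axis, 0 at the 75th percentile, dotted) for the 128 tested probes of the family without Rpl3l. Purple marks the brightest probe of a gene and green its other probes, grey lines join probes of 1 gene, and filled points have an unadjusted limma p under 0.05. The 5 filled green points below 0 are the dim probes of Rps15a, Rpl37, Rps20, Rps24 and Rps12.

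The sequence around the start of these genes was compared through RefSeq's promoter table (build GRCm38.p6), which held 59 of the 79 genes. The motif searched was a run of at least 8 bases that are each C or T, on the gene's own strand, from 50 bases before to 50 after the annotated start. It was found in 50 of the 59, or 84.7%, and in 39.3% of the 27025 genes in the table; the median longest run was 10 bases in the family and 7 overall. The run was present on both sides of the expression difference, as the stretches below show, with the run in capitals. The first 4 genes had positive differences and the last 3 negative ones.
Rpl13a, chr7:45128724-45128753, minus strand: tgcgacaagaCCTCCTCCTTTCCCaggcgg
Rpl18, chr7:45718062-45718091, plus strand: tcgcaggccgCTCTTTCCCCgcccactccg
Rps27, chr3:90213631-90213660, minus strand: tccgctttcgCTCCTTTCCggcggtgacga
Rps6, chr4:86857349-86857378, minus strand: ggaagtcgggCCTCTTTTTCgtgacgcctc
Rpl14, chr9:120571499-120571528, plus strand: gcagggcgggCCCTCTCTCTTCTCgctgag
Rpl27a, chr7:109519181-109519210, plus strand: acttcgtgagCTCCTCCCTTTTCCCTTTCT
Rpl31, chr1:39367823-39367852, plus strand: cctcgccacaCCTCTTCCTCCTCgcctccc
The 50 genes with a run had a median difference of 0.18 and the 9 without one 0.25. A run in this window is a match of letters and was not tested as a TOP motif.

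Other genes of ribosome production were set beside the family. Of 14 translation factors and other genes whose messages also carry a TOP motif, 0 were called, and their median difference was 0.10 (-0.02 on slide 1 and 0.34 on slide 2), which turned to -0.11 after quantile normalization. Of 75 mitochondrial ribosomal proteins, 0 were called, 58 were lower in MR 4-25 and the median was -0.19. Of 17 genes of translation initiation and S6 kinase signalling, 0 were called and the median was also -0.19.

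Genes that make ribosomal RNA and assemble ribosomes had mostly negative differences. Of 35 such genes, 33 had negative differences and 2 positive ones, with a median of -0.55 that was -0.54 on slide 1 and -0.61 on slide 2, and -0.54 after quantile normalization. The lines did not overlap for 24, all with MR 4-25 lower, where 13.2% of all genes did so. An unadjusted limma p under 0.05 was reached by 20, all lower. In either direction 13.2% of all genes and 19.6% of the brightest 25% reached it. Limma called 0 of the 35 after adjustment over all genes. Their lowest limma adjusted p was 0.055, for Taf1c, a subunit of the factor that starts ribosomal RNA transcription, at -1.06 ± 0.15 (SE). With array quality weights 11 were called, where 9.53% of all genes were, and with an intensity trend and robust fit 6, where 3.34% were. The difference between this list and the ribosomal proteins was not tested.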

How the data were processed

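Total RNA (500 ng, labelled with Cy3) from 3 samples of each line was measured on Agilent arrays with 60-base probes. The deposited processed signals are intensity values corrected for background, per the file headers; the software was Agilent's Feature Extraction, as version 9.5.3.1 in those headers and 9.5 in the submitters' processing notes. A deposited value table held the same intensity values (largest difference 0).

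Control spots (1639 of the array's spots) were left out of the 43379 gene spots, outlier spots were masked, spots of a probe were averaged and each array's log2 75th percentile was subtracted. A probe was kept if at least 3 of 6 arrays had it well above background (30965), the brightest standing for each gene name. The comparison used lmFit and eBayes of limma 3.58.1 in R 4.3.3, with Benjamini-Hochberg adjustment over 21518 genes; intervals are 95%. The number of arrays limits the precision. The script was tested on simulated data.

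The members and gene lists were chosen with earlier results of these data known. Named genes were the 8 largest positive and the 8 largest negative differences among genes above background on all arrays, genes past the test, and fixed members with a stated role; others are marked where named, and 1 gene of the rule is not reported here. A member was left out of the test because its spot was masked on 1 array. Rpl10l, Rpl39l and Rps4y2 of that rule had no probe under those names.

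Replicate numbers are those of the labels. Over all genes, the departures from the line mean of arrays with one number correlated at 0.29, 0.21 and 0.56, each above 0.1, so a fit with the number as a block was run beside the reported fits, which have none. Arrays of slide 1 with unlike numbers correlated at 0.41 and 0.38, so number and slide cannot be told apart here. Alternatives were other background corrections, scalings, filters, probe and gene keys, masks, variance models, blocks for slide or replicate, slide 1 alone, each array left out, and scaling to the family's median. Probe positions come from the array annotation (build mm7). No protein sequences were used here.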

Additional observations from a re-analysis of the deposited data

How the results depend on the processing

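No ribosomal protein gene was called in any of the 23 alternatives. The median difference of the 78 genes, 0.21 in the main setting, went to 0.0053 with normexp, -0.0077 with quantile normalization, 0.016 with both, and -0.00015 by construction when arrays were scaled to the family's median; it was 0.12 to 0.31 with single arrays left out. The number of genes called over the whole array, 259, was 79 with normexp (55 higher and 24 lower, against 143 and 116), 503 with normexp and quantile, 522 with the filter on all 6 arrays, 401 with every probe on its own, 719 with an intensity trend and robust fit, 2050 with array quality weights, 127 on slide 1 alone, 119 with family median scaling and 0 to 223 with single arrays left out (0 without Neo 2, 7 without Neo 1, 37 without Neo 3, 10 without MR 4-25 1, 9 without MR 4-25 2). With a replicate block, which treats same-numbered arrays as pairs, 1 gene was called in all and 0 ribosomal protein genes, with a lowest adjusted p of 0.32 among these in limma; it changed no call of a ribosomal protein gene. Of the 36 genes named by rule, 18 kept the sign of their difference in every alternative run and 18 changed it in at least 1. Ribosome biogenesis genes called were 0 in the other alternatives and 1 with normexp and quantile, 4 with the filter on all 6 arrays, 6 with a trend and robust fit and 11 with array quality weights. Slide 2 alone has 1 array a line and gave values without a test. The number of arrays limits the precision.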
